A study of Drosophila melanogaster with 20 samples.

Results

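Heads of Drosophila melanogaster females collected 24 h after mating were compared with heads of virgin females of the same age on 4 two-channel oligonucleotide arrays, out of 20 arrays in the series. Each array held its own pair of samples, one mated and one virgin, and each sample was pooled from about 100 heads. The mated group was Canton S females that were 5 days old when 10 of them were placed with 20 males for 2 h. The males were w; P[UAS-dj-GFP] flies, whose GFP-labelled sperm marks a female that has mated. Females that carried this sperm, seen as a glow through the abdomen, were picked out under CO2 and were frozen 24 h later without anaesthesia. The virgin group was Canton S females of matching age that were collected in a like manner, and by the study's design females of both groups were exposed to CO2. RNA of mated females carried Cy3 on replicates 1 and 2 and Cy5 on replicates 3 and 4. All values below are the deposited log2 ratios of mated over virgin, so a negative value means less transcript in mated heads, and a mean is given with its SD over the arrays that hold a value.

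A fly head is a mixture of brain, eyes, muscle, cuticle, blood cells and fat body. The fat body of the head surrounds the brain and does much of the work of liver and adipose tissue: it stores protein, lipid and glycogen, interconverts sugars and amino acids, and secretes proteins into the hemolymph. Mating brings a female into sustained egg laying, with changes in feeding, nutrient use and immunity that are set off by seminal fluid proteins such as sex peptide. The question put to these arrays was which transcripts of the head differ a day after mating. Ratios carry no level, so the presence of each tissue could be judged only by whether its marker genes gave a ratio at all. Values were found for 6 of 7 fat body markers, 4 of 6 eye markers and 7 of 9 neuronal markers. They were also found for 3 of 3 muscle markers and 2 of 2 blood cell markers, whereas the single ovary marker, Fcp26Aa, gave none. The fat body marker Obp99a and the eye markers Gbeta76C and rdgA had no row that could be named here, so they could not be looked up. The 4 eye markers with a value were named through the study's list of top genes at 24 h, as were the fat body markers with a value other than Tsf1.

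The arrays were thinly and unevenly filled. Of 15744 probes, replicate 1 held values for 2947, replicate 2 for 1879, replicate 3 for 4311 and replicate 4 for 4559, so 71.0 to 88.1% of the cells were empty. A mean could be tested for 4140 probes with at least 2 values. Of these, 1858 had 2 values, 2036 had 3 and 246 had 4, and 1007 (24.3%) had values in a single dye orientation. The median ratio over the probes tested was 0.03. Across all probes that 2 arrays shared, with no choice by size, the arrays mostly did not follow each other. Pearson's r was -0.04 between replicates 1 and 2 (346 probes), -0.07 between 1 and 3 (2395), 0.09 between 1 and 4 (2386), 0.08 between 2 and 3 (550) and 0.13 between 2 and 4 (576). Replicates 3 and 4, which share a dye orientation, were the exception at 0.48 over 3189 probes, whereas replicates 1 and 2 share the other orientation. The table carries no gene names. Names were recovered for 100 probes of 99 genes from the study's list for this time point and for 153 further tested probes from its lists for other time points and for brains. The 100 probes are among the 101 with the smallest p in the fit of these same arrays, so their size and direction are a description, and the counts for gene lists below, which are mostly made of them, are no independent evidence of a list's direction.

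At 24 h Lsp2 fell, by 18.5-fold, and it was the only probe to pass the limma test at an adjusted p under 0.05, which is 0.0242% of those tested. Without adjustment, 208 probes with a lower ratio (5.02%) and 118 with a higher one (2.85%) had a p under 0.05. These shares are the background for the counts in gene lists below. Changes of at least 2-fold were also more often toward lower ratios, with 100 probes at or below -1 and 34 at or above 1. When a term for dye orientation was added, which can be fitted for 2282 probes, 36 were lower (1.58%) and 15 higher (0.657%) at an adjusted p under 0.05. The 24 h list accounted for 34 of those lower probes and 5 of the higher ones. In the sentences that follow, the limma adjusted p is given first for the fit without the dye term, and the p of the fit with that term is named as such. The fit with the dye term leaves the gap between dye orientations out of the error. Where a probe has values on replicates 1, 3 and 4, as 64 probes of the 24 h list do, its own error comes from replicates 3 and 4 alone. A smaller p with that term is thus no evidence that replicate 1 matched the others in size.

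Among the listed genes, 77 probes had lower and 23 had higher ratios in mated heads, and all arrays with a value gave the same sign for each of the 100. The lower ones spanned -4.21 to -0.76, with a median of -1.17, and 55 of the 77 were at least 2-fold lower. The higher ones spanned 0.55 to 2.13, with a median of 1.06. The SD of the lower genes with 3 or more values ran between 0.02 and 1.04, with a median of 0.29. Choice by a small p on these arrays favours a small SD and a common sign, so neither measures how well the arrays agree. The lower genes were also balanced between the dyes, since 33 of 64 with both orientations lay farther from 0 with mated RNA in Cy3 and 31 with mated RNA in Cy5. Replicate 2 gave a value for only 15 of the 100 probes, so the account of the listed genes rests largely on replicates 1, 3 and 4.

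The lowest ratios were those of the storage proteins. Lsp2 and Lsp1beta encode larval serum proteins, hexamers made by the fat body that hold amino acids in reserve. The ratio of Lsp2 was -3.71, -4.42 and -4.49 on replicates 1, 3 and 4. Its mean of -4.21 ± 0.43 (SD, n = 3) had an adjusted p of 0.0186, and 0.000717 with the dye term. The ratio of Lsp1beta was -2.64, -3.76 and -4.40 on the same arrays, and its mean of -3.60 ± 0.89 (SD, n = 3) had an adjusted p of 0.146, or 0.00319 with the dye term. In both genes the ratio was nearer 0 on replicate 1 than on either of replicates 3 and 4, and no array came near 0. In a bulk extract of this kind, fewer fat body cells and less RNA per cell cannot be told apart.

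Other proteins that the fat body secretes were lower too. Obp99b, of the odorant-binding protein family, had ratios of -2.42, -1.42 and -3.49 on replicates 1, 3 and 4. The transcript of fit, a gene of the head fat body that is expressed mainly in females, had ratios of -1.55, -2.21 and -1.55, a mean of -1.77 ± 0.38 (SD, n = 3). The ratios of takeout (to), a secreted carrier protein tied to feeding and the circadian clock, were -0.40, -1.05 and -1.25. With the dye term the adjusted p was 0.0469 for Obp99b, 0.02 for fit and 0.0948 for to. Tsf1, the iron carrier transferrin, showed no common direction, at 0.37 on replicate 1, -1.10 on replicate 3 and 0.08 on replicate 4. Of the 4 genes tested in this group, 3 had an unadjusted p under 0.05, all lower, and the median was -1.34. With the storage proteins counted in, all 6 fat body markers tested had mean ratios below 0, between -4.21 and -0.22, and 5 of them had an unadjusted p under 0.05. Those 5 come from the 24 h list, so their small p and common sign follow from how they were chosen. Tsf1, the only one named otherwise, came through the 48 h list.

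**Figure D1:**
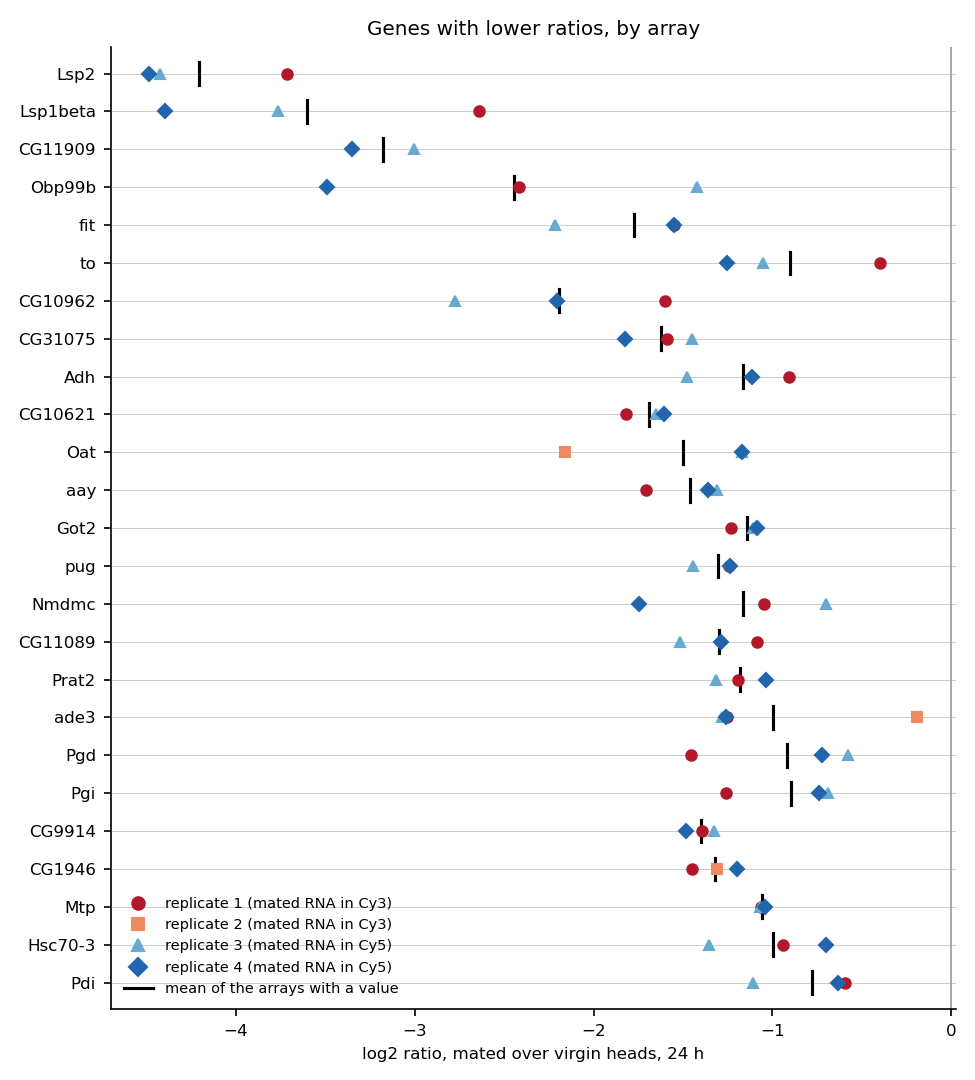
Log2 ratio of mated over virgin heads at 24 h (x axis) for 25 genes with lower ratios (y axis), one symbol per array and a black bar at the mean of the arrays with a value. Every point lies below 0, the storage proteins Lsp2 and Lsp1beta lie between -4.49 and -2.64, and the value of ade3 on replicate 2 (-0.19) stands apart from its other 3.

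Enzymes that handle amino acids mostly had lower ratios. Of 13 genes tested, 9 were lower and 1 was higher at an unadjusted p under 0.05, and the median was -1.09. CG10621, which resembles homocysteine methyltransferases, had ratios of -1.82, -1.65 and -1.61 on replicates 1, 3 and 4, a mean of -1.69 ± 0.11 (SD, n = 3) with an adjusted p of 0.0167 in the fit with the dye term. Phosphoserine phosphatase, encoded by aay, which makes serine, stood at -1.71, -1.31 and -1.36 on the same arrays, a 2.75-fold decrease with a dye-term adjusted p of 0.0187. Ornithine aminotransferase (Oat) had -2.16 on replicate 2 and -1.17 on each of replicates 3 and 4. The glutamate oxaloacetate transaminases, which shuttle amino groups between glutamate and aspartate, were both lower. Got2 had ratios of -1.23, -1.11 and -1.09 on replicates 1, 3 and 4, and Got1 had -1.34, -0.78 and -0.61. The remaining lower members were sarcosine dehydrogenase (CG6385, now Sardh), spermidine synthase (SpdS), serine hydroxymethyltransferase (CG3011, now Shmt) and ppl, an enzyme of glycine breakdown, with means between -1.57 and -0.92. The exception was CG8745, a predicted aminotransferase, with 0.67 and 0.36 on replicates 1 and 2 and 2.20 and 2.19 on replicates 3 and 4. Its mean of 1.35 ± 0.97 (SD, n = 4) had an adjusted p of 0.42, and 0.0163 with the dye term. The size of its ratio thus differed between the dye orientations, while its sign did not.

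The folate pathway, which carries the one-carbon units that serine and glycine release, and purine synthesis, which uses them, were lower alongside. All 4 genes tested of the folate list had an unadjusted p under 0.05 and means between -1.31 and -0.85, and all 4 come from the 24 h list. The trifunctional folate enzyme pug had ratios of -1.24, -1.44 and -1.24 on replicates 1, 3 and 4, with a dye-term adjusted p of 0.0301. Nmdmc, a mitochondrial methylenetetrahydrofolate dehydrogenase, had -1.05, -0.70 and -1.74, and CG8665, a formyltetrahydrofolate dehydrogenase, had -0.98, -0.77 and -0.81. CG34424 (now Mthfs), a folate enzyme that stands outside the list and was named through the 72 h and brain lists, had smaller ratios of -0.49, -0.28 and -0.35 on replicates 1, 3 and 4, a mean of -0.37 ± 0.11 (SD, n = 3) with an unadjusted p of 0.0934. CG3011 showed the spread that a value on replicate 2 could bring, at -1.70, -0.30, -1.20 and -1.61 on replicates 1 to 4. Of the purine genes, 3 of the 4 tested were lower at an unadjusted p under 0.05. Prat2, which makes the first committed step, had -1.19, -1.32 and -1.04 on replicates 1, 3 and 4. CG11089, which carries out the last steps to inosine monophosphate, had -1.09, -1.52 and -1.29. The trifunctional enzyme ade3 (now Gart) had -1.25, -1.28 and -1.26 on replicates 1, 3 and 4 and -0.19 on replicate 2. The GMP synthase bur had 0.50, -0.17 and -0.53, with no common direction.

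Genes of the oxidative and non-oxidative arms of the pentose phosphate pathway, which supplies NADPH for lipid synthesis and ribose for nucleotides, had lower ratios where they could be named. All 5 genes tested come from the 24 h list, whose choice favours a small p here. Each was lower at an unadjusted p under 0.05, with means from -1.17 to -0.92. They were malic enzyme (Men), another source of NADPH, transaldolase (Tal, now Taldo), 6-phosphogluconolactonase (CG17333, now Pgls), the transketolase CG8036 and 6-phosphogluconate dehydrogenase (Pgd). Zw, the other member of this list, had no row that could be named here. Men was measured on replicates 1 and 4 only, at -1.18 and -1.17. Pgd had -1.45 on replicate 1 against -0.58 and -0.72 on replicates 3 and 4, with an adjusted p of 0.446. It alone of the group had an adjusted p under 0.05 with the dye term, at 0.0483. The error of that fit leaves out the gap between replicate 1 and replicates 3 and 4.

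Sugar and glycogen enzymes had lower ratios in 10 of 11 genes tested, with an unadjusted p under 0.05 for each and a median of -0.96. CG11909 (now tobi), an alpha-glucosidase whose transcript is known to respond to insulin signalling, was the third lowest of all named probes. It was measured in one dye orientation, at -3.01 and -3.35 on replicates 3 and 4, and its mean of -3.18 ± 0.24 (SD, n = 2) had an adjusted p of 0.146. The carbohydrate kinase CG11594 had ratios of -1.65, -1.34 and -1.43 on replicates 1, 3 and 4, with a dye-term adjusted p of 0.0187. CG32444, a predicted aldose epimerase, had -2.07, -1.68 and -0.93. In central sugar metabolism the ratios were smaller. Phosphoglucose isomerase (Pgi) averaged -0.90 ± 0.32, phosphoglucomutase (Pgm) -0.74 ± 0.43, the glycogen branching enzyme CG33138 -0.70 ± 0.35 and the debranching enzyme CG9485 -0.55 ± 0.27 (SD, n = 3 each). Of these, only Pgi stands in the 24 h list, whereas Pgm, CG33138 and CG9485 were named through lists of other time points. The glycolytic enzyme Tpi had 0.03 and -0.29 on replicates 3 and 4.

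Alcohol, aldehyde and short-chain dehydrogenases were lower without exception in this list, with all 9 genes tested at an unadjusted p under 0.05 and 6 of them at an adjusted p under 0.05 with the dye term. All 9 come from the 24 h list. The short-chain dehydrogenase CG10962 had ratios of -1.60, -2.78 and -2.20 on replicates 1, 3 and 4, and a mean of -2.19 ± 0.59 (SD, n = 3). CG3699, of the same family, had -2.79 and -2.03 on replicates 3 and 4. The aldehyde dehydrogenase CG31075 had -1.59, -1.45 and -1.82 on replicates 1, 3 and 4. Alcohol dehydrogenase (Adh), with which flies use and detoxify ethanol, had -0.90, -1.48 and -1.11, a 2.24-fold decrease. Its partner Aldh, which oxidises acetaldehyde, was measured on all 4 arrays at -0.91, -1.29, -0.63 and -0.46, with a dye-term adjusted p of 0.0421.

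Of 12 lipid genes tested, 11 had means below 0, and 7 of them had an unadjusted p under 0.05. None was higher at that level, and the median was -0.82. The 6 members of the 24 h list were the acyl-CoA dehydrogenase CG3902, CG9914 (now Had1), the acyltransferase CG1946, the microsomal triglyceride transfer protein Mtp, which loads lipid onto lipoproteins, the carrier CG5958 and the fatty acid binding protein CG6783 (now fabp). Mtp had the smallest SD of any named probe with 3 values, at -1.06, -1.07 and -1.04 on replicates 1, 3 and 4. CG1946 was among the few with a value on replicate 2, at -1.45, -1.31 and -1.20 on replicates 1, 2 and 4. The triglyceride lipase brummer (bmm), named through the 72 h list, averaged -0.73 ± 0.25 (SD, n = 3). The genes for droplet coat and lipase proteins Lsd-1, dob and sPLA2 had means between -0.15 and -0.04, with arrays on both sides of 0.

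Peptidases were split, with 3 lower and 3 higher at an unadjusted p under 0.05 of 7 tested. The zinc carboxypeptidase CG8539 had ratios of -1.27, -1.45 and -1.27 on replicates 1, 3 and 4, and CG4408, of the same family, had -1.08, -1.06 and -0.88. In the secretory pathway, of 5 genes for folding and transport in the endoplasmic reticulum, 4 were lower at an unadjusted p under 0.05, although none passed the adjusted test with the dye term. They were the lumenal Hsp70 chaperone Hsc70-3, at -0.94, -1.35 and -0.70 on replicates 1, 3 and 4, the protein disulfide isomerase Pdi, at -0.59, -1.11 and -0.63, the calcium-binding protein NUCB1 and CG32276. The last pair were measured on replicates 3 and 4 only, between -1.25 and -1.08. P58IPK, a cochaperone of the same compartment, had 0.66, -0.75 and 0.07. Outside these groups, both probes of the peroxisomal ATPase CG11919 (now Pex6) were lower, with means of -1.27 ± 0.38 and -1.04 ± 0.14 (SD, n = 3 each), so the pair of measurements on one transcript fell within the spread of the arrays. CG9119, CG9396 and CG5793 were lower on all 3 arrays with a value, with dye-term adjusted p-values of 0.0189, 0.0324 and 0.0421.

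Some low ratios rest on a pair of arrays. The Mediator subunit skd had -2.71 and -2.10 on replicates 3 and 4, and the proteasome subunit Rpt3 had -2.11 and -2.13 on the same arrays, so that neither has a value with mated RNA in Cy3. The regucalcin homologue smp-30, with -1.80 on replicate 1 and -2.22 on replicate 4, was seen in both orientations. Dap160, a scaffold protein of synaptic endocytosis, was likewise seen in both, at -1.71 on replicate 2 and -1.18 on replicate 3. Their adjusted p-values were 0.154, 0.153, 0.185 and 0.335, and none could be fitted with the dye term, which needs 3 values.

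**Figure D2:**
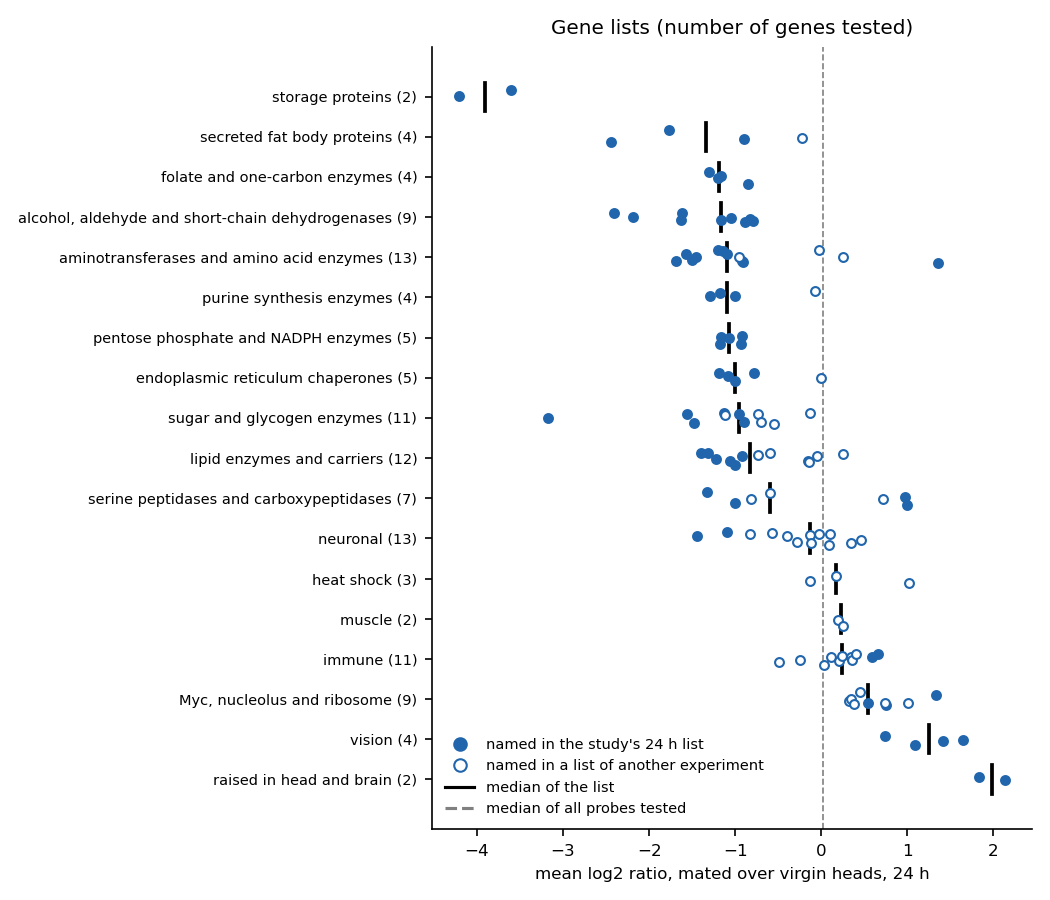
Mean log2 ratio of mated over virgin heads at 24 h (x axis) for each gene tested in 18 lists (y axis, with the number of genes tested), filled where the gene was named in the study's 24 h list and open where it was named in a list of another experiment. Black bars mark each list's median and the dashed line the median of all probes tested (0.03); medians run from -3.90 for the storage proteins to 1.98 for CG3348 and CG8147.

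Higher ratios were fewer and were found in other groups of genes. The 4 genes of vision that were measured were all higher at an unadjusted p under 0.05, between 0.74 and 1.65, and all 4 come from the 24 h list. Rh4, an ultraviolet-sensitive opsin, had 1.54 and 1.30 on replicates 3 and 4. Rh5, the blue-sensitive opsin, had 0.77, 0.93 and 0.51 on replicates 1, 3 and 4. The light-activated channel subunit trpl had 0.83, 0.96 and 1.49. The corneal lens protein retinin had the largest ratio of the 4 but also the widest spread, at 0.70, 2.52 and 1.72, and its dye-term adjusted p was 0.0425. The eye markers lay on the opposite side of 0 from the fat body markers. All of both sets but Tsf1 come from the 24 h list, chosen by a small p on these arrays. The muscle markers Act57B and Tm1 had means of 0.26 and 0.19, with no unadjusted p under 0.05. Of the 6 neuronal markers tested, 4 lay below 0 and 2 above, between -0.83 and 0.11. The lowest, Nplp3, named through the 48 h list, had an unadjusted p of 0.0113. In the wider neuronal list, 9 of 13 genes tested lay below 0. Of these, Dap160, LIMK1 and Nplp3 were lower at an unadjusted p under 0.05, where the background is 5.02%, and none was higher. Dap160 and LIMK1 come from the 24 h list. The part of a changed share of each tissue in the head extract in any of these ratios was not tested.

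The highest ratios belonged to CG8147 and CG3348. CG8147 (now phu), a predicted alkaline phosphatase, had 2.28, 0.62 and 3.50 on replicates 1, 3 and 4, so its mean of 2.13 ± 1.44 (SD, n = 3) had a wide error and an adjusted p of 0.422. CG3348, a protein with predicted chitin-binding domains, was the steadier of the pair, with 1.51, 2.27 and 1.72. Its mean of 1.83 ± 0.39 (SD, n = 3), a 3.56-fold increase, had an adjusted p of 0.146, and 0.0187 with the dye term. The acid phosphatase CG9449 had 0.47 on replicate 2 and 1.73 and 1.79 on replicates 3 and 4, with a dye-term adjusted p of 0.0421. The serine peptidases CG9676 and CG7829 had means of 1.00 ± 0.54 and 0.97 ± 0.43 (SD, n = 3 each), on the other side of 0 from the carboxypeptidases. CG8329, a serine peptidase named through the 48 h and 72 h lists, had 0.33, 0.82 and 1.00 on replicates 1, 3 and 4 and an unadjusted p of 0.0186. Among higher genes with 2 values, the serine hydrolase kraken had 1.47 and 0.91 on replicates 3 and 4.

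Some genes of growth and of immunity had higher ratios. The growth regulator dm, which encodes Myc, had 0.55, 0.72 and 0.99 on replicates 1, 3 and 4. Nop56, a core protein of the nucleolar particles that modify ribosomal RNA, had 2.25, 1.05 and 0.69. Its adjusted p was 0.428, and 0.0193 with the dye term, whose error leaves out the gap between replicate 1 and replicates 3 and 4. The ribosomal protein gene RpS20 was measured on all 4 arrays, at 0.77, 0.47, 0.57 and 0.40, a 1.46-fold higher mean with a log2 SD of 0.16. Of 9 genes in this group, 4 were higher at an unadjusted p under 0.05, against 2.85% of all probes tested, and none was lower. Of these 4, dm, Nop56 and RpS20 come from the 24 h list. Among 11 immune genes tested, 3 were higher at that level, against 2.85% of all probes tested, and none was lower. Of the 3, Def and CG16836 come from the 24 h list, while nimB4 was named through the brain list. Defensin (Def), an antibacterial peptide, had 0.56, 0.85, 0.51 and 0.43 on replicates 1 to 4. The Bomanin CG16836 (now BomT2), of a family of short peptides induced by infection, had 1.11, 0.56, 0.60 and 0.38. The blood cell marker nimB4 had 0.25, 0.53, 0.45 and 0.40, the smallest SD of the 3, at 0.11. Other antimicrobial and stress peptides, such as AttA, AttC, TotA and TotC, had means between -0.24 and 0.35 with no unadjusted p under 0.05.

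**Figure D3:**
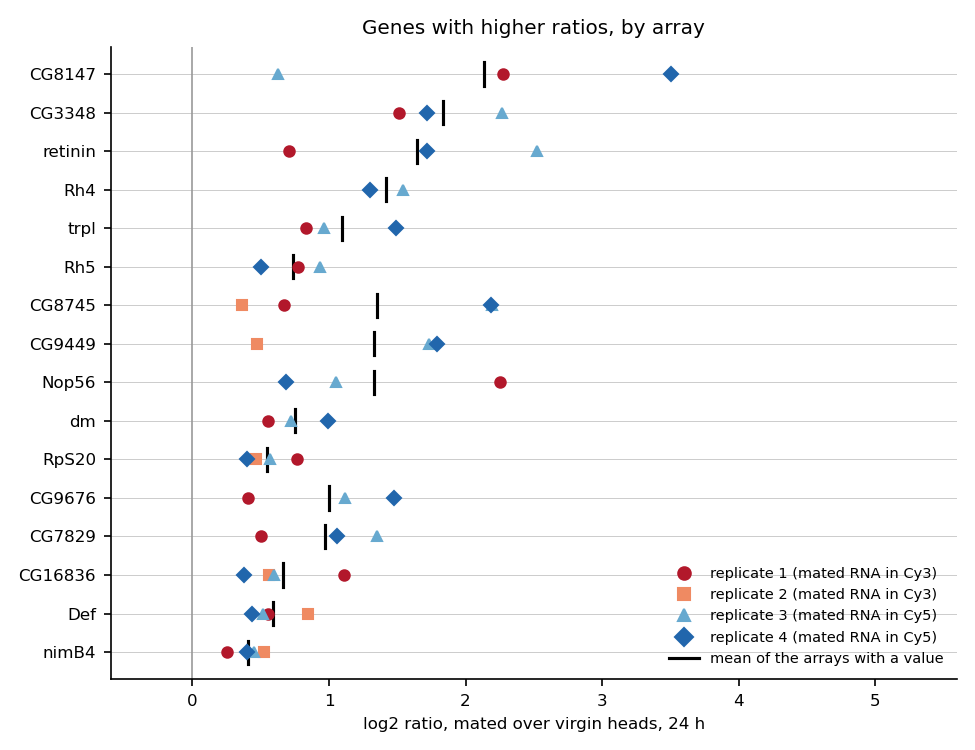
Log2 ratio of mated over virgin heads at 24 h (x axis) for 16 genes with higher ratios (y axis), one symbol per array and a black bar at the mean of the arrays with a value. All points lie above 0; CG8147 runs from 0.62 to 3.50, whereas the 4 values of RpS20 and of nimB4 lie close together.

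A set of transcripts behaved differently on replicate 1 from the rest. Replicate 1 held 19 values of 3 or more, against 2 to 4 on each of the other arrays. The 18S ribosomal RNA had a ratio of 3.98 on replicate 1 and of -1.95 and -0.89 on replicates 3 and 4. The 5.8S ribosomal RNA had 3.93 on replicate 1 and -0.11 and -0.80 on replicates 3 and 4. Hsromega, a nuclear noncoding RNA of the heat shock response, had 4.01 on replicate 1 and -1.96 on replicate 4, and CG8616 had 3.49, -1.90 and -1.41. The RNA-binding protein gene heph had 2.06, -0.58 and -0.43, and CG12736 had 3.03 and 0.07 on replicates 1 and 4. None of these was measured on replicate 2, the other array with mated RNA in Cy3, so for them dye orientation and a particular pair of samples cannot be told apart. Their mean ratios, between 0.06 and 1.55, describe none of the arrays. With the dye term 5.8SrRNA:CR40454 came out higher, at 1.74 with an adjusted p of 0.02, and it was the only named probe outside the 24 h list to do so. The error of that fit leaves out the gap between replicate 1 and replicates 3 and 4.

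Opposite signs were common across the print and absent from the listed genes. Of 3133 tested probes with a value in each orientation, 1703 (54.4%) had means of opposite sign, and in 21 of them both means were 2-fold or more from 0. No listed probe was among the 1703, which its choice by small p favours. Lists made on the arrays of other times overlap with the 24 h list, so their genes are given in whole and then without that list. Of the 48 h list, 52 probes with lower ratios there were tested at 24 h, and 50 lay below 0 at 24 h, 45 of them with an unadjusted p under 0.05, where the background is 5.02%. Of its 11 probes with higher ratios, 10 lay above 0 at 24 h and 6 had such a p, where the background is 2.85%. For the 72 h list these counts were 32 of 35 below 0 with 16 past that level, and 19 of 20 above 0 with 8. Probes that stand in the 24 h list too had to have a small p here, and they were 32 of the 52 and 4 of the 11 at 48 h, and 13 of the 35 and 4 of the 20 at 72 h. Outside the 24 h list, 18 of 20 lower probes of the 48 h list lay below 0 at 24 h, 13 with an unadjusted p under 0.05, and 6 of 7 higher ones lay above 0, 2 with such a p. For the 72 h list these were 19 of 22 below 0 with 3 past that level, and 15 of 16 above 0 with 4. Genes of the 0-2 h list did not keep their side: of 50 with higher ratios at 0-2 h, 29 lay below 0 at 24 h and 21 above. An unadjusted p under 0.05 was found for 8 of those below and 2 of those above. Lsp1beta, fit, CG10621 and aay, which stand in the 24 h list too, are among the 8. Of 19 with lower ratios at 0-2 h, 8 lay below 0 at 24 h and 11 above, with 2 past that level on each side.

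**Figure D4:**
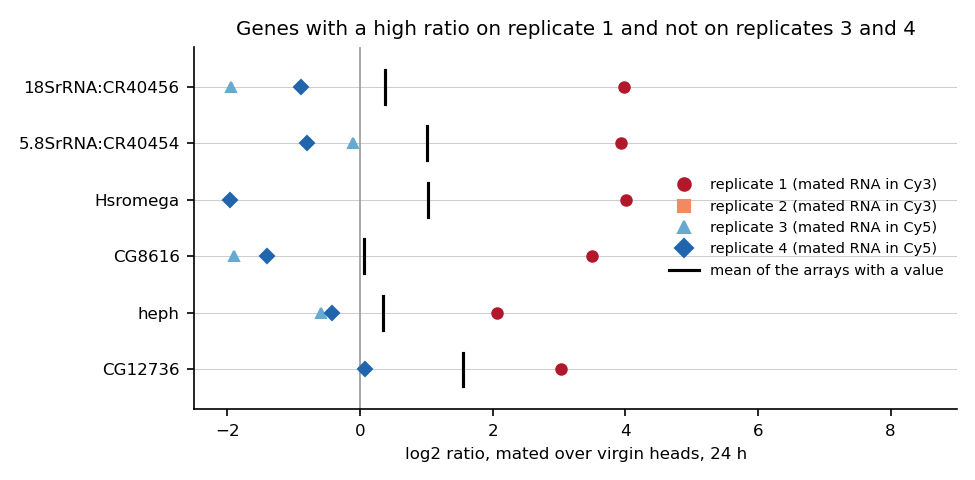
Log2 ratio of mated over virgin heads at 24 h (x axis) for 6 genes (y axis) with a high value on replicate 1, one symbol per array and a black bar at the mean. Replicate 1 lies between 2.06 and 4.01 in all 6, whereas replicates 3 and 4 lie between -1.96 and 0.07.

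The 24 h heads were then set against the 0-2 h heads, in which mated and virgin females had both been anaesthetised with CO2 just before freezing. Among 3179 probes measured in both, 6 had lower and 1 had higher ratios at 24 h by a limma adjusted p under 0.05 (0.22%). The mean ratio of Lsp1beta was -3.60 at 24 h and 0.73 at 0-2 h, a difference of -4.33 ± 0.41 (SE). For fit the means were -1.77 at 24 h and 0.67 at 0-2 h, where its 4 arrays lay between 0.39 and 0.85, and for aay they were -1.46 at 24 h and 0.66 at 0-2 h, where its arrays lay between 0.54 and 0.81. The adjusted p of these 3 differences was 0.00361. Lsp2 averaged -4.21 at 24 h and 0.96 at 0-2 h (difference -5.16 ± 0.55, adjusted p = 0.00382), and CG10621 averaged -1.69 at 24 h and 0.78 at 0-2 h (difference -2.47 ± 0.28, adjusted p = 0.0122). In all 5 genes no array at 24 h overlapped an array at 0-2 h. Their choice by a small p on the same arrays favours this separation, and its share over all probes was not counted. CG12896, a peroxiredoxin, had a mean of -0.55 at 24 h and a steady 1.28 to 1.46 on the 4 arrays at 0-2 h (difference -1.90 ± 0.25, adjusted p = 0.0147). Hsp68, a heat shock chaperone, was the one with a higher ratio at 24 h, at -0.02 and -0.24 on replicates 3 and 4, against -2.68 and -2.96 on replicates 1 and 2 at 0-2 h. Its difference of 2.70 ± 0.32 had an adjusted p of 0.05 after rounding, and since the values at the 2 times come from opposite dye orientations, time and dye cannot be told apart for it. Eye genes were near or below 0 at 0-2 h, with means of -0.37 for retinin and -0.23 for Rh4, but their differences of 2.02 and 1.65 did not pass the adjusted test (adjusted p = 0.162 and 0.0873).

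Heads at 24 h could not be separated from heads at 48 and 72 h by any single probe. No probe among 1827 shared with 48 h and none among 2782 shared with 72 h had an adjusted p under 0.05 by limma, while 104 (5.69%) and 243 (8.73%) had an unadjusted p under 0.05. The smallest adjusted p was 0.852 for 48 h and 0.189 for 72 h. The mean ratio of Lsp2 was 0.96, -4.21, -4.05 and -1.37 in the order 0-2, 24, 48 and 72 h, and the difference between 24 h and 72 h was -2.84 ± 0.48 (SE, adjusted p = 0.22). That of aay was 0.66, -1.46, -0.92 and -0.27 in the same order, and that of fit was 0.67, -1.77, -0.84 and -0.42. CG10962 averaged 0.18, -2.19, -2.44 and -1.40. CG3348 averaged 0.82, 1.83, 1.55 and 2.55. The ratios of CG8147 averaged -0.68, 2.13, 2.80 and 1.62, with SDs of 0.40, 1.44, 1.55 and 1.20.

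**Figure D5:**
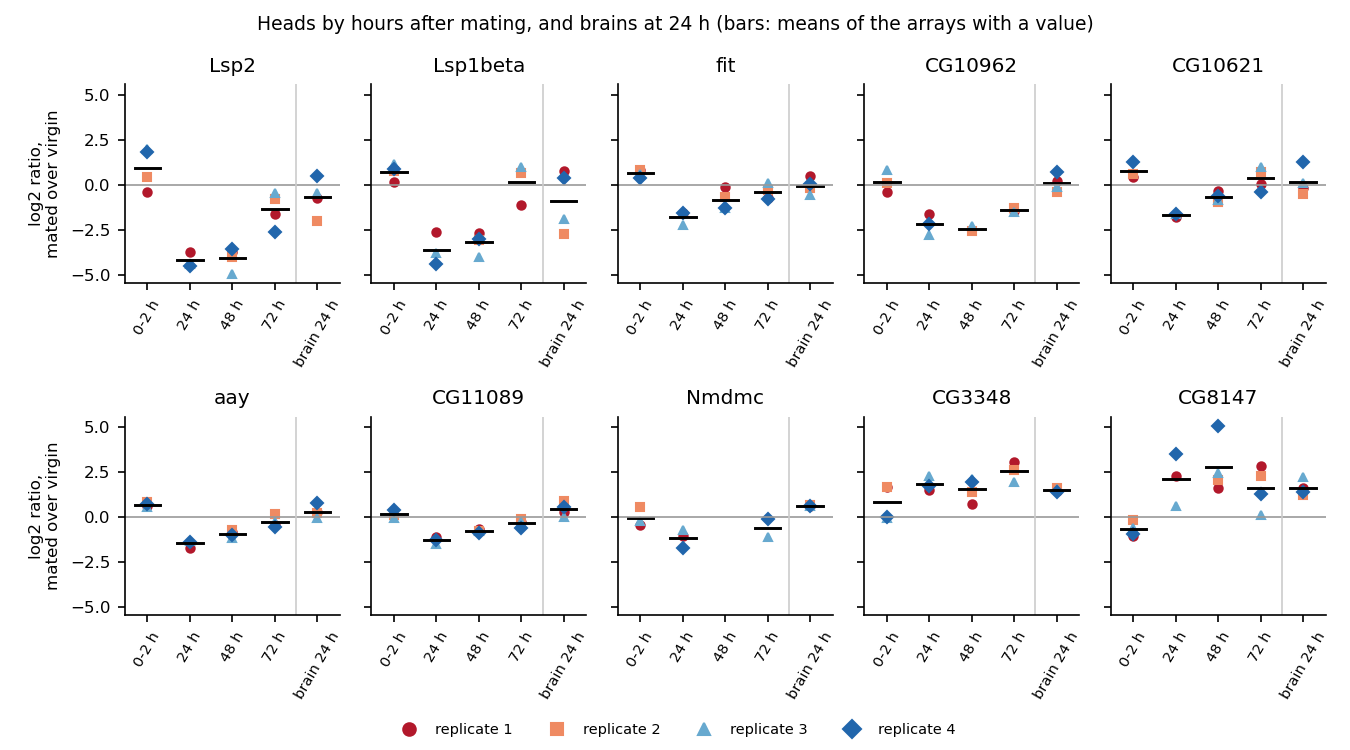
Log2 ratio of mated over virgin (y axis) for 10 genes in heads at 0-2, 24, 48 and 72 h after mating and in brains at 24 h (x axis), one symbol per array and a black bar at the mean. The 24 h values of Lsp2, Lsp1beta, fit, CG10621 and aay lie below 0 and apart from those at 0-2 h, while CG3348 lies above 0 in heads at 24 h and in brains.

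Dissected brains of females 24 h after mating, which had been rinsed free of other tissue and whose RNA was amplified before labelling, differed from whole heads of the same age in 5 genes, all with lower ratios in heads (0.2% of 2499 probes, limma adjusted p = 0.0314 for each). Lsp2 averaged -4.21 in heads and -0.66 in brains, where its arrays ran from -1.99 to 0.48. The means of aay were -1.46 in heads and 0.31 in brains, and those of CG10962 were -2.19 in heads and 0.10 in brains. The folate enzyme Nmdmc averaged -1.16 in heads and 0.63 in brains, where its 4 arrays lay between 0.59 and 0.67. The purine enzyme CG11089 averaged -1.30 in heads and 0.43 in brains. Differences ranged from -3.54 for Lsp2 to -1.73 for CG11089, and in each of the 5 genes no head array overlapped a brain array. Their choice by a small p on the same arrays favours this separation, and its share over all probes was not counted. The gene fit, at -1.77 in heads and -0.06 in brains, missed the adjusted test (difference -1.71 ± 0.31, adjusted p = 0.0645). For a pair of genes put in a list because they were raised in both, CG3348 averaged 1.83 in heads and 1.49 in brains, and CG8147 averaged 2.13 in heads and 1.59 in brains, with differences of 0.34 ± 0.26 and 0.54 ± 0.55 (SE) that did not pass the adjusted test. Amplification and tissue cannot be told apart in this comparison.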

How the data were processed

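Per the labels, head RNA was labelled directly during reverse transcription and brain RNA was amplified first, in 5 experiments of 4 arrays with a dye swap. The authors deposited 1 table of normalized log2 ratios of mated over virgin per array, already turned for the swap; the submitters' notes name limma. Scanner, background correction, within-array normalization, genome build and the rule for empty cells were not given in the sources used here. In all there are 15776 rows, of which 32 control rows were left out.

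Rows were named by matching their mean ratio, number of values and one-sample p to the study's lists of top genes. These lists were used for names only, and their fold changes and p-values were not used as results. Current symbols came from RefSeq Release 6 names, which matched 99 of the 100 listed probes. A comparison with 48 h, 72 h or brains used plates 2 to 30 of the print, and that with 0-2 h all plates. That a row holds the same gene on these plates was inferred, and not checked against the print's annotation: the number of values per row correlated with that at 24 h plate by plate (r of 0.57 to 0.77 with 48 h, 0.61 to 0.78 with 72 h, 0.44 to 0.77 with brains and 0.71 to 0.89 with 0-2 h), but at -0.06 to 0.14 on plate 1 and plates 32 to 41 with 48 h, 72 h and brains. Where the layouts differ, values of a gene in another experiment come from the row named there and were not tested.

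Probes with at least 2 values were tested against 0 with limma 3.58.1 (functions lmFit and eBayes, two-sided, under R 4.3.3) and Benjamini-Hochberg adjustment over all probes tested. Differences between experiments were fitted on the arrays of both. The step was tested on simulated data. Python 3.11.15 made the tables and figures, with numpy 2.4.6, pandas 2.3.3 and matplotlib 3.10.9. Alternatives were centring and scaling of arrays, a dye term, stricter minimums of values, robust eBayes and a one-sample Student test. Further ones were all 16 head arrays in one fit, a replicate block as a fixed term, all rows of the print and each array left out. The shared plates for the comparison with 0-2 h were an alternative chosen after seeing the data.

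Genes named in the text come from sets of probes, of which not every member is named. These were the probes past the adjusted threshold with or without the dye term and the members of the gene lists. The 10 lowest and 10 highest named probes whose 3 or more values share a sign with p under 0.05 before adjustment were another set. So were the 5 lowest and 5 highest with 2 values. CG8616, CG12896 and CG34424 are named in addition, after their values were seen. Members and lists were chosen with earlier results of these data known. Labels call the 4 arrays biological replicates. A probe has at most 4 values, which limits the precision of its mean.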

Additional observations from a re-analysis of the deposited data

Results flagged for a closer look

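In the sets from which named genes were drawn, 9 probes had values on all 4 arrays, and 1 of them had an array far from the others. It was ade3, whose ratio of -0.19 on replicate 2 lay apart from -1.25, -1.28 and -1.26 on replicates 1, 3 and 4. Chance marks about 1 in 20 such groups. Differences between 24 h heads and another experiment that passed the adjusted limma test were those from 0-2 h heads for Lsp1beta (-4.33), aay (-2.12), fit (-2.45), Lsp2 (-5.16), CG10621 (-2.47), CG12896 (-1.90) and Hsp68 (2.70). Those from brains were found for Lsp2 (-3.54), aay (-1.77), CG10962 (-2.29), Nmdmc (-1.79) and CG11089 (-1.73).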

How the results depend on the processing

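Lsp2 passed the adjusted test in 10 of the 12 alternatives in which it was measured, and not with arrays scaled to one spread (adjusted p = 0.165) or with a one-sample Student test (0.409). The number of probes past the adjusted threshold at 24 h was 1, and it was 0 after scaling the arrays, with a Student test and with values on all 4 arrays (246 probes tested), 2 with 3 or more values, 51 with the dye term and 68 with all 16 head arrays in one fit. Leaving out an array gave 1 to 3, the highest without replicate 1. The count of 208 lower probes at an unadjusted p under 0.05 became 12 with values on all 4 arrays and 352 with all 16 head arrays, and 83 (without replicate 4) to 266 (without replicate 1) when an array was left out, with 123 without replicate 3. The count of 118 higher probes became 70 with 3 or more values, 74 with a value in each dye orientation, 14 with values on all 4 arrays and 264 with all 16 head arrays, and 34 (without replicate 4) to 280 (without replicate 1) when an array was left out, with 47 without replicate 3. The cause was not tested.

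The 7 differences from 0-2 h became 116 with a dye term and 4 (without replicate 4) to 12 (without replicate 1) when a 24 h array was left out. There were 0 differences from 48 h, but 3 over all rows of the print, and 0 from 72 h in every setting run. The 5 differences from brains became 15 with 3 or more values in each and 89 with a dye term. They were 0 without replicate 1, 3 or 4 and 10 without replicate 2, so each of these 3 arrays is needed for them. Equal replicate numbers mark no shared flies. The deviations of same-numbered arrays from the means of their own experiments were correlated over probes with 3 or more values in each. The r was 0.03 to 0.40 with 0-2 h, 0.07 to 0.22 with 48 h, -0.05 to 0.17 with 72 h and 0.00 to 0.18 with brains. With a replicate block the counts were 8, 0, 0 and 17. With 0-2 h, and less strongly with 48 h, the deviations of the arrays followed dye orientation rather than number.

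Of the 100 probes of the 24 h list, 0 changed sign in the alternatives run, over 1099 values. All arrays with a value gave the same sign for each of these probes. Apart from centring the arrays, no alternative could therefore have changed the sign, and the count is no test of their direction. Of the 133 probes in the sets from which named genes were drawn, 16 changed sign in at least 1 alternative, none with an unadjusted p under 0.05. With arrays scaled to one spread these were bru-3 (0.0757), Ahcy13 (0.0044) and P58IPK (0.0020), and with the dye term cpx (0.031), bur (0.0758) and P58IPK (0.16). Leaving out an array gave ranges of -0.64 to 0.20 for AttA, -0.51 to 0.23 for Tsf1, -0.44 to 0.0437 for dob, -0.27 to 0.0389 for sPLA2, -0.45 to 0.075 for cpx, -0.35 to 0.17 for bur, -0.19 to 0.0714 for Lsd-1, -0.17 to 0.21 for Ahcy13, -0.34 to 0.37 for P58IPK, -0.36 to 0.35 for ple, -0.35 to 0.54 for Sh, -0.0203 to 0.33 for Tm1, -0.51 to 0.82 for heph, -1.42 to 1.55 for 18SrRNA:CR40456 and -0.46 to 1.91 for 5.8SrRNA:CR40454. In the last 3 the lowest value was that without replicate 1.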
